A study of Nicotiana with 12 samples.

Results

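Light-harvesting chlorophyll a/b-binding proteins are the antenna proteins of the thylakoid membrane in chloroplasts. They are encoded in the nucleus, are imported into the chloroplast, and hold chlorophylls and xanthophylls that pass absorbed light energy to the reaction centres of the photosystems. Their transcripts are among the most abundant of a green leaf and are known to depend on light, the circadian clock and leaf age. The genes described here are the 3 whose symbol in the probe annotation is CAB4, CAB5 or CAB6A. In tomato, CAB4 and CAB5 encode proteins of the photosystem II antenna (LHCII), and CAB6A encodes a protein of the photosystem I antenna (LHCI). Each is read by 1 probe set, so 3 of 10101 probe sets tested, and of 909 probe sets that the annotation names, are described. No other probe set has a symbol of this family, and 9192 have no symbol at all, so further family members are not analysed here.

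The leaves came from Nicotiana (tobacco) plants about 10 weeks old, either wild type (WT) or carrying PSARK::IPT, called IPT here. The transgene places isopentenyltransferase, which makes the hormone cytokinin, behind the SARK promoter, which is that of a receptor kinase gene tied to leaf senescence. Whether all IPT plants descend from 1 transformed plant is not given in the labels. Plants of each genotype were given 1000 mL of water per pot each day (watered) or 300 mL (stressed), and the stress lasted 45 days in the greenhouse. Each of the 4 groups is 3 biological replicates on 1 array each, 12 arrays in all. The labels give no time of day for the harvest.

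The array was Affymetrix's Tomato Genome Array, so tobacco transcripts were read by probes designed on tomato sequence. The genes of this family are very similar to each other, and tobacco has several copies, so a probe set may also read RNA of copies other than the gene it is named for. A level is the RMA value on the log2 scale, and levels of different probe sets are not ranked against each other. Where 2 genes are set side by side, only the shift of their difference between groups is read. Where arrays of 2 groups are said to lie apart or not to overlap, that only describes these arrays. The share of all probe sets that do so is not given, and 3 arrays against 3 reach an exact permutation p of 0.1 at best. In whole leaves, fewer mesophyll cells and less RNA per cell cannot be told apart. A gene is called higher or lower, or said to rise or fall, where it passed a Benjamini-Hochberg adjusted p of 0.05 over all 10101 probe sets in limma's test.

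The medians of the arrays lay between 3.38 and 3.45, and the levels of CAB4, CAB5 and CAB6A lay above them on every array, from 5.77 to 10.64. Replicate arrays correlated with r from 0.982 to 0.992 over all probe sets. Stressed WT replicate 2 stood apart on the second principal component, at -24.6 against -9.86 and -8.96 in its group. The spiked poly-A control RNAs had a mean log2 level of 9.90 ± 0.03 (SD, n = 3) in watered WT and between 7.38 and 8.44 on the 9 other arrays. Their 3' minus 5' difference, which grows as labelling stops short of the 5' end, was 2.23 ± 0.08 (watered) and 4.45 ± 0.87 (stressed) in WT, and 2.79 ± 0.43 (watered) and 3.59 ± 0.10 (stressed) in IPT.

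CAB4, of the photosystem II antenna, had its lowest levels on the stressed WT arrays. They read 9.93, 9.91 and 9.90 there, against 10.53, 10.50 and 10.59 on the watered WT arrays. The watered IPT arrays read 10.49, 10.46 and 10.47, and the stressed IPT arrays 10.64, 10.51 and 10.53. The 3 stressed WT arrays lay apart from all others, which ran from 10.46 to 10.64. The group means, from high to low, were 10.56 ± 0.07 in stressed IPT, 10.54 ± 0.05 in watered WT, 10.47 ± 0.02 in watered IPT and 9.91 ± 0.01 in stressed WT (SD, n = 3 each). The upper 3 means did not pass against each other.

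CAB5, also of the photosystem II antenna, ran over a narrower range. Its levels were 6.11, 6.20 and 6.17 in watered WT and 5.77, 5.94 and 5.87 in stressed WT. In IPT they were 5.90, 6.03 and 6.00 when watered and 6.36, 6.13 and 6.14 under stress. The stressed WT arrays overlapped the watered IPT arrays but none of the watered WT or stressed IPT arrays. Group means were 6.21 ± 0.13 in stressed IPT, 6.16 ± 0.05 in watered WT, 5.97 ± 0.07 in watered IPT and 5.86 ± 0.09 in stressed WT. Neighbours in this order did not pass against each other where tested, and the highest single level, 6.36, came from stressed IPT replicate 1.

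CAB6A, of the photosystem I antenna, had higher means in both IPT groups than in both WT groups. It read 8.76, 8.64 and 8.42 in watered WT and 8.32, 8.32 and 8.35 in stressed WT. The IPT levels were 8.98, 8.85 and 8.73 when watered and 8.87, 8.72 and 8.83 under stress. All stressed WT arrays lay below all others, although watered WT replicate 3 came within 0.07 of them. The order of the means differed from that of CAB4 and CAB5, with 8.86 ± 0.13 in watered IPT, 8.81 ± 0.08 in stressed IPT, 8.61 ± 0.17 in watered WT and 8.33 ± 0.02 in stressed WT. The watered WT arrays had the widest spread of any group for any of these genes, an SD of 0.17. The limma fit shares its estimate of the spread over all groups, so the SE of 0.12 given for CAB6A below does not reflect this.

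**Figure D1:**
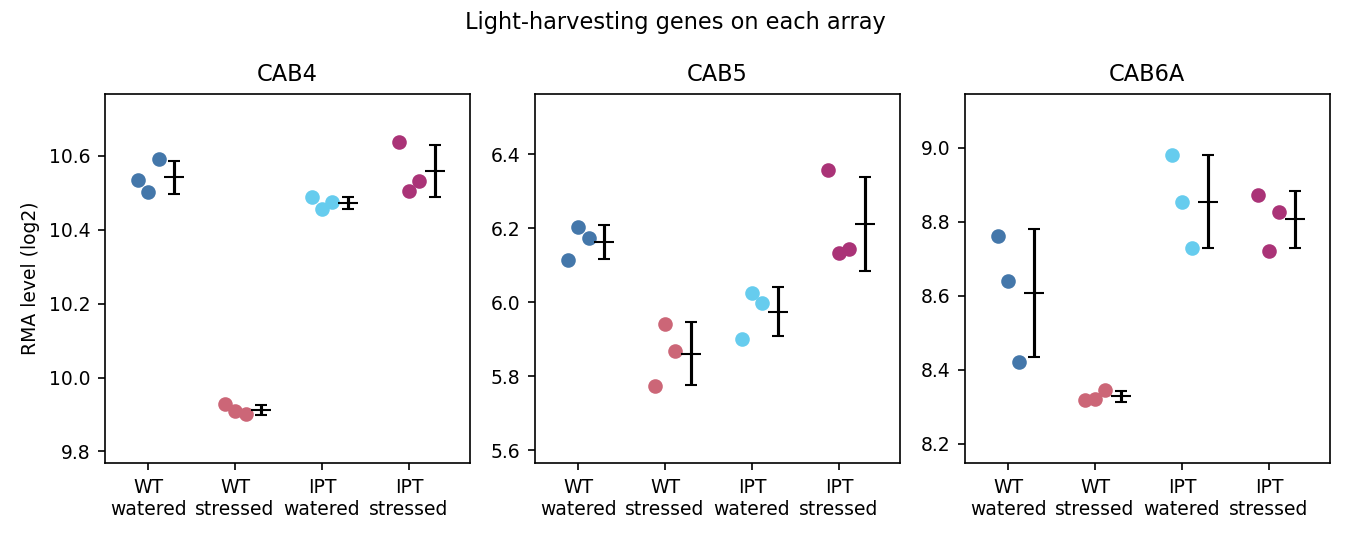
RMA levels (log2) of CAB4, CAB5 and CAB6A on the 12 arrays, 1 point per array, with the group mean and SD (n = 3) in black beside the points. Each panel spans 1 log2 unit on its own axis, and the stressed WT arrays of CAB4 lie between 9.90 and 9.93, below all others.

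The first comparison asked what the reduced water supply did to these genes in WT leaves. CAB4 fell 1.55-fold (log2 change -0.63, SE 0.10, 95% interval -0.85 to -0.41, limma adjusted p = 0.000847). CAB5 (-0.30, interval -0.54 to -0.07, adjusted p = 0.0922) and CAB6A (-0.28, interval -0.53 to -0.03, adjusted p = 0.151) did not pass, with unadjusted p of 0.015 and 0.0323. So 1 of 3 fell and 0 rose, where 5.67% of all probe sets fell and 5.63% rose. The median change of the 3 genes was -0.30 and that of all probe sets 0.04. Of all probe sets, 3.46% had a lower change than CAB4, 11.2% lower than CAB5 and 12.3% lower than CAB6A.

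The CAB4 fall was as large without stressed WT replicate 2 (-0.63, adjusted p = 0.00302), and it still passed when any single WT array was omitted. On the same arrays the poly-A controls had a 3' minus 5' difference that lay 2.23 higher under stress. Its exact permutation p was 0.1, which is as low as 3 arrays against 3 can reach. With that difference as a covariate, CAB4 kept its size (-0.66) while its SE widened from 0.10 to 0.22, and it no longer passed (adjusted p = 0.297). With only probe sets of above-median brightness tested, CAB5 also passed (adjusted p = 0.039), and with an intensity trend and robust moderation CAB6A did (adjusted p = 0.0399).

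Within WT, CAB4 was set against CAB5 on the same arrays. The difference between their log2 levels was 0.33 smaller under stress (pooled SD 0.08), and the 2 groups of arrays did not overlap. Against CAB6A it was 0.35 smaller (pooled SD 0.15), again without overlap. By exact permutation (two-sided) each p was 0.1, the lowest possible, and an adjusted p of 0.167 over the 15 such differences computed, a test that cannot reach 0.05 with 3 arrays against 3. Between CAB5 and CAB6A the shift was -0.02 (pooled SD 0.15, exact permutation p = 0.9). Under stress in IPT, CAB4 minus CAB5 was also smaller, with a shift of -0.15 (pooled SD 0.07). There CAB5 minus CAB6A shifted by 0.29 (pooled SD 0.14), and each of these had an exact permutation p of 0.1. CAB4 minus CAB6A shifted by 0.13 in IPT (pooled SD 0.09, exact permutation p = 0.2).

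The same stress was then compared in IPT leaves, where none of these genes passed. CAB4 changed by a log2 value of 0.09 (SE 0.10, interval -0.13 to 0.30, limma adjusted p = 0.782) and CAB6A by -0.05 (interval -0.30 to 0.20). CAB5 stood at 0.24 (SE 0.11, interval 0.0015 to 0.47), with an unadjusted p of 0.0487 and an adjusted p of 0.348. For CAB4 and CAB5 the 3 stressed arrays lay above the 3 watered ones, by gaps of 0.02 and 0.11, and for CAB6A they overlapped. How many of all probe sets lay apart is not given, and the unadjusted limma p of CAB4 was 0.418. In this comparison 0.594% of all probe sets rose and 0.762% fell, and the median of the 3 genes was 0.09 against 0.00 over all probe sets. The intervals do not hold a fall as large as that of CAB4 in WT, though that of CAB6A holds its own WT change of -0.28.

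**Figure D2:**
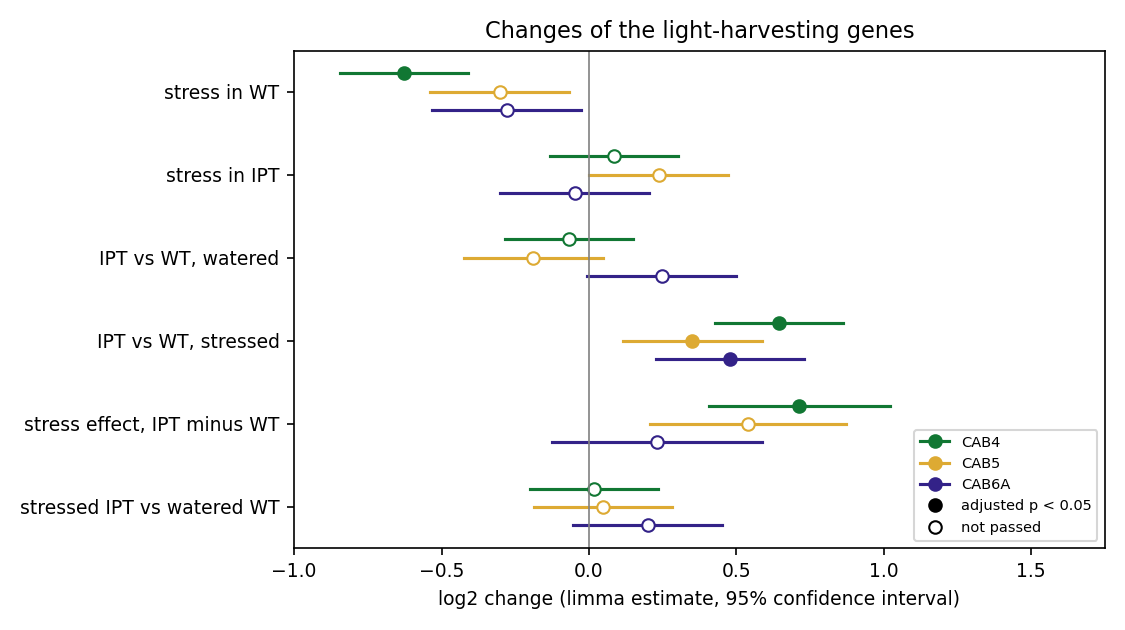
Log2 changes of CAB4, CAB5 and CAB6A in 6 comparisons, each the limma estimate with its 95% interval (lines), 3 arrays per group. Filled points passed an adjusted p of 0.05, namely CAB4 under stress in WT (-0.63), all 3 genes between stressed genotypes (0.35 to 0.65) and CAB4 in the difference of the stress effects (0.71).

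Whether the response to stress differed by genotype was tested directly as the stress effect in IPT minus that in WT. It was 0.71 for CAB4 (SE 0.14, interval 0.41 to 1.02, limma adjusted p = 0.0134), a 1.64-fold difference. For CAB5 it was 0.54 (SE 0.16, interval 0.21 to 0.87, adjusted p = 0.0995) and for CAB6A 0.23 (SE 0.17, interval -0.13 to 0.59, adjusted p = 0.579). Hence 1 of 3 was higher, where 1.1% of all probe sets were higher and 0.802% lower. CAB4 ranked 114 by p among the 10101 probe sets. CAB5 ranked 345, with 192 probe sets past the threshold.

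The CAB4 difference passed in all 12 fits that left out 1 array, with adjusted p up to 0.041. It was 0.55 after quantile normalization (adjusted p = 0.0694) and 0.73 with the poly-A covariate (adjusted p = 0.0865), and passed under neither. CAB5 passed when only probe sets above the median brightness were tested (adjusted p = 0.0378).

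Between the watered genotypes none of these genes passed. CAB4 was measured at -0.07 in IPT relative to WT (SE 0.10, limma adjusted p = 0.742), CAB5 at -0.19 (SE 0.11, adjusted p = 0.318) and CAB6A at 0.25 (SE 0.12, interval -0.0053 to 0.50, adjusted p = 0.209). Unadjusted p-values were 0.512, 0.108 and 0.0544. The arrays of the genotypes did not overlap for CAB4 or CAB5, by gaps of 0.01 and 0.09, and did for CAB6A. The share of all probe sets without overlap is not given, so no difference is read from this. Over all probe sets, 7.7% were higher and 6.12% lower in watered IPT. The within-array difference of CAB6A from CAB5 shifted by 0.44 (pooled SD 0.19) and from CAB4 by 0.32 (pooled SD 0.17), without overlap of the groups and each with the smallest possible exact permutation p, 0.1.

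Under stress the genotypes differed for all 3 genes. CAB4 was 1.56-fold higher in IPT (log2 0.65, SE 0.10, interval 0.43 to 0.86, limma adjusted p = 0.000249). CAB6A was 1.39-fold higher (0.48, SE 0.12, interval 0.23 to 0.73, adjusted p = 0.00985), and CAB5 was 1.28-fold higher (0.35, SE 0.11, interval 0.12 to 0.59, adjusted p = 0.0395). For each gene the 3 stressed IPT arrays lay above the 3 stressed WT arrays, by gaps of 0.58, 0.38 and 0.19. How many of all probe sets did so is not given. By adjusted p 3 of 3 were higher, where 8.24% of all probe sets were higher and 8.42% lower. The median of the 3 was 0.48 against -0.01 over all probe sets. This comparison and the stress comparison in WT share the stressed WT arrays, so their values are not independent.

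CAB4 passed in every alternative fit of this comparison, between 0.50 and 0.67. CAB6A did so in all but the fit with the poly-A covariate (0.45, adjusted p = 0.0647), on arrays where the 3' minus 5' difference was 0.86 lower in IPT. CAB5 was close to the threshold. It did not pass with that covariate (0.40, adjusted p = 0.0679), with only the stressed arrays in the fit (adjusted p = 0.1), or with the replicate number as a block (adjusted p = 0.0614). Nor did it pass without stressed WT replicate 1 (0.31, adjusted p = 0.128) or 3 (0.35, 0.0743), or without stressed IPT replicate 1 (0.28, 0.161), 2 (0.39, 0.0553) or 3 (0.38, 0.0602).

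**Figure D3:**
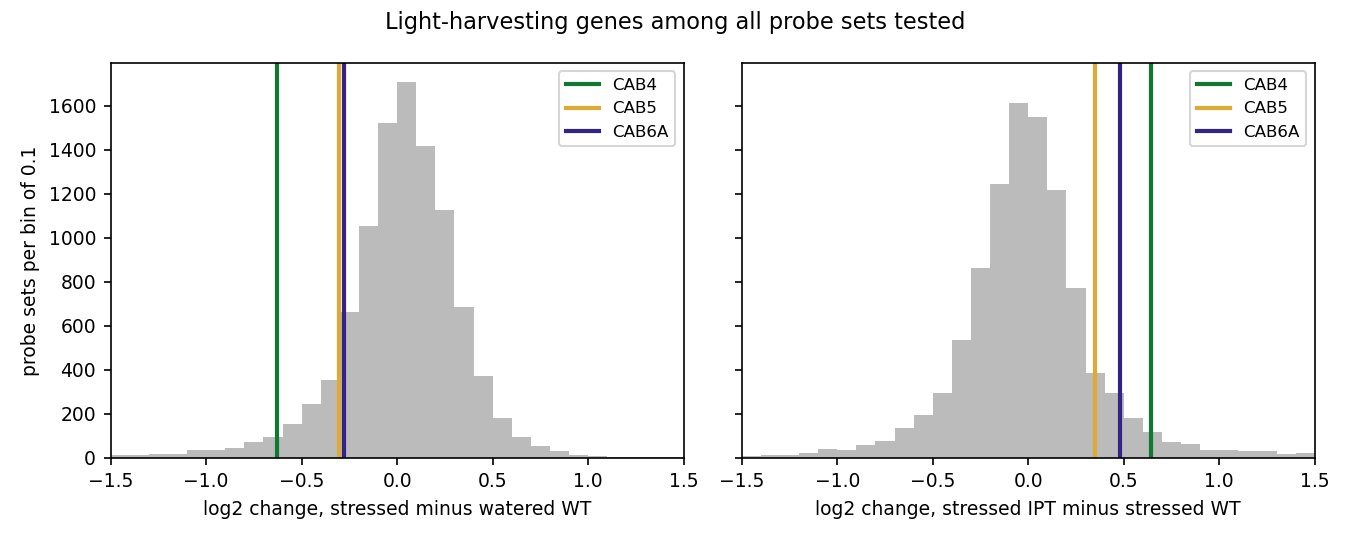
Number of probe sets by log2 change in bins of 0.1, for stressed against watered WT (left) and stressed IPT against stressed WT (right), with CAB4, CAB5 and CAB6A as vertical lines. The axis ends at 1.5 on both sides, which leaves out 49 and 118 probe sets, and 95.7% of all probe sets lie below CAB4 on the right.

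Stressed IPT leaves were last set against watered WT leaves, and none of the 3 genes passed. The log2 difference was 0.02 for CAB4 (SE 0.10, interval -0.20 to 0.23, limma adjusted p = 0.939), 0.05 for CAB5 (interval -0.19 to 0.28) and 0.20 for CAB6A (interval -0.05 to 0.45, adjusted p = 0.292). The arrays of both groups overlapped for each gene. Of all probe sets, 9.51% were higher and 8.42% lower in this comparison.

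Other genes of the photosynthetic membrane were taken from lists by symbol, which held 4 photosystem II genes. Counts for these and later lists stand beside the shares of all probe sets given above for each comparison. PSBO, PSBP and PsbQ encode the extrinsic proteins of the oxygen-evolving complex, and PSBR encodes a further small photosystem II protein. Under stress in WT 0 of 4 passed, with PsbQ at -0.30, PSBP at -0.30, PSBO at -0.16 and PSBR at -0.07. PsbQ passed there with median-centring (adjusted p = 0.045), and PsbQ and PSBP both passed with the brightness filter (0.0241 and 0.0359) and with trend and robust moderation (0.000307 and 0.00282). In stressed IPT against stressed WT, 3 of 4 were higher, by 0.89 for PSBP (SE 0.11), 0.77 for PsbQ (SE 0.10) and 0.61 for PSBO (SE 0.11), at a median of 0.69 for the list. After quantile normalization PSBO did not pass there (adjusted p = 0.107), and the stress values of PsbQ and PSBO in WT turned to 0.04 each.

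In watered IPT the same 3 genes were also higher than in watered WT. PSBP stood at 0.55 (limma adjusted p = 0.00221), PSBO at 0.46 (adjusted p = 0.0091) and PsbQ at 0.41 (adjusted p = 0.0126), while PSBR did not pass (0.04). PSBP levels were 10.48, 10.41 and 10.49 in watered WT and 10.98, 11.10 and 10.94 in watered IPT. The arrays of the genotypes did not overlap. In stressed IPT against watered WT these 3 genes were higher, at 0.60, 0.45 and 0.47, where the CAB genes stood at 0.02 to 0.20. PSBR stood at -0.02 there and did not pass. The gap between these 3 genes and the CAB genes was not itself tested. In this comparison PSBO passed neither after quantile normalization nor with the poly-A covariate, and PsbQ did not pass with that covariate. In the difference of the stress effects 0 of 4 passed, with PsbQ at 0.36, PSBP at 0.35, PSBO at 0.15 and PSBR at 0.02. With trend and robust moderation PsbQ (adjusted p = 0.00424) and PSBP (adjusted p = 0.0325) passed.

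PETE is the gene of plastocyanin, which carries electrons to photosystem I. It was higher in IPT both watered (0.47, SE 0.13, limma adjusted p = 0.0217) and stressed (0.61, SE 0.13, adjusted p = 0.0031), and stood at -0.18 under stress in WT, not passing. Without watered WT replicate 3 (adjusted p = 0.111) or watered IPT replicate 2 (adjusted p = 0.0935), and with the poly-A covariate, the watered difference no longer passed.

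The fixed patterns for chlorophyll synthesis and breakdown, for the Rubisco small subunit and activase, and for senescence matched 0 symbols. Reading the annotation added GSA-AT, the gene of an aminotransferase early in chlorophyll synthesis. GSA-AT was higher in IPT when watered (1.09, SE 0.11, limma adjusted p = 4.64e-06) and under stress (1.04, SE 0.11), with 0.22 in WT stress and 0.17 in IPT stress, neither passing. POR2, whose symbol does not settle which reductase it is, was also higher, at 0.58 and 0.70, but its group means of 2.87 to 3.75 lay near the array medians.

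**Figure D4:**
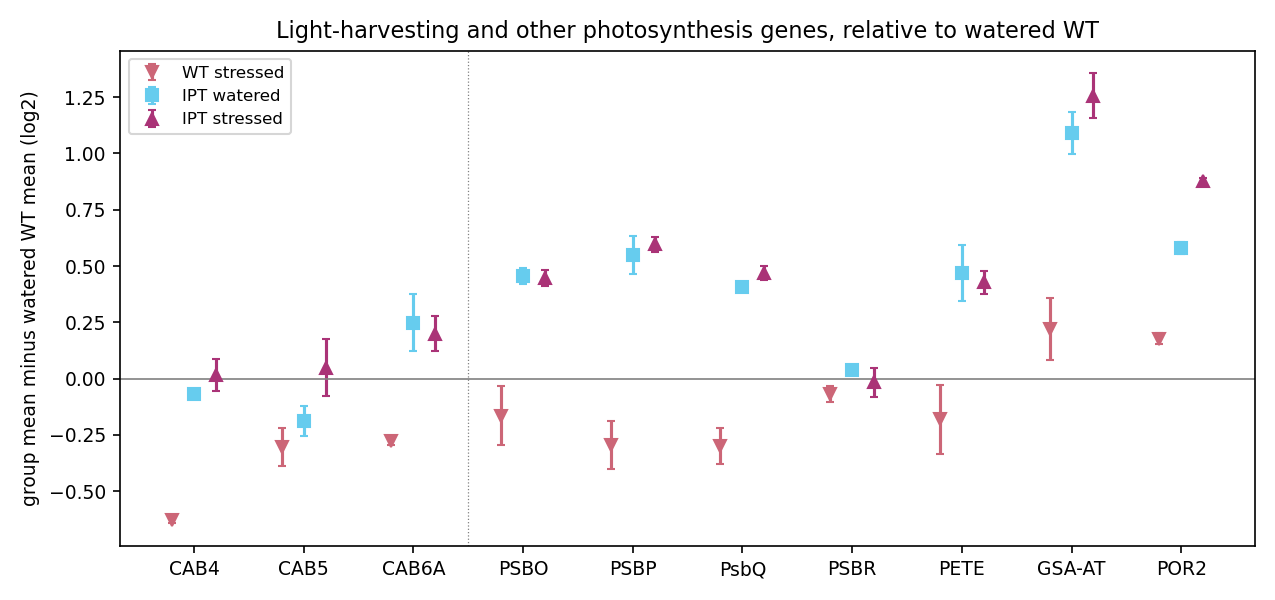
Mean log2 level of each group minus that of watered WT for the light-harvesting genes (left of the dotted line) and 7 other genes, with the SD of the 3 arrays of each group as error bars. Watered IPT lies at -0.07 and -0.19 for CAB4 and CAB5 but at 0.25 for CAB6A. It lies at 0.41 to 0.55 for PSBO, PSBP and PsbQ but at 0.04 for PSBR.

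Light-harvesting proteins bind xanthophylls, and 14 probe sets of 11 carotenoid genes were on the list for these. Between stressed genotypes 4 probe sets were higher and 1 lower in IPT (median -0.14). Over all probe sets 8.24% were higher there and 8.42% lower. VDE, violaxanthin de-epoxidase, was higher with both its probe sets (3.00 and 0.66), and CrtR-b1, a beta-carotene hydroxylase, lower (-2.26). The other 2 were ZDS, a carotene desaturase (0.41), and CRTL-E-1, a lycopene cyclase (0.63). ZDS did not pass in 7 of 14 alternatives, among them those without stressed WT replicate 1 or 2 or any 1 stressed IPT array, nor CRTL-E-1 without stressed WT replicate 1 or stressed IPT replicate 3 or with the poly-A covariate. Under stress in WT 2 rose, PTOX, the plastid terminal oxidase (1.01), and a probe set of VDE (0.54), and 0 fell. The VDE rise no longer passed when any single WT array other than stressed WT replicate 1 was omitted, with adjusted p of 0.056 to 0.122, and the other VDE probe set stood at -0.46, not passing. With the poly-A covariate PTOX (0.68) did not pass either. In the difference of the stress effects 0 of 14 passed.

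The list for photoreceptors and light signalling, the pathway through which light controls CAB transcription, held 17 probe sets for 13 genes. In stressed IPT relative to stressed WT 8.42% of all probe sets were lower and 8.24% higher. On the list 5 were lower and 0 higher (median -0.17). They were CIP2b (-1.85, SE 0.13) and CIP1 (-1.55, SE 0.19), of COP1-interacting proteins, the ubiquitin ligase subunit CUL4 (-0.67), COP1, a repressor of light responses (-0.53), and PHYA, a phytochrome (-0.80). A second probe set of CIP1 stood at -0.02. CIP1 (1 of 2 probe sets, the other at -0.36), CIP2b and COP1 were lower in watered IPT too, but COP1 did not pass there without watered WT replicate 3 or watered IPT replicate 2 or 3. Between stressed genotypes COP1 passed in 8 of 13 alternatives and not without stressed WT replicate 1 or any 1 stressed IPT array, and PHYA passed in 6 of 14 and not without stressed WT replicate 1 or 2 or any 1 stressed IPT array.

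In WT stress CUL4 rose (0.58) and 1 of 2 probe sets of CRY1A, a blue-light receptor, fell (-0.82), while the other stood at 0.44. In IPT the first of these fell as well (-1.11). CUL4 did not pass in WT without watered WT replicate 2 or 3 or stressed WT replicate 2, nor CRY1A without watered WT replicate 1 or stressed WT replicate 2 or 3. In IPT, CRY1A did not pass without watered IPT replicate 1 or 2 or stressed IPT replicate 1 or 3. None of these 3 calls held with the poly-A covariate.

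Of the lists for other leaf tissues, only that for epidermis and trichomes passed between genotypes as a whole. The 3 markers of epidermis and trichomes, the lipid transfer protein genes LE16, TSW12 and ltpg1, were all lower in IPT, watered (median -1.31) and stressed (median -1.40). In the watered comparison ltpg1 did not pass without watered WT replicate 1 (-0.44, adjusted p = 0.0542) or watered IPT replicate 1 or 2. The log2 of the levels of these 3 markers, summed on the linear scale, ran from 7.17 to 7.58 on the WT arrays. On the IPT arrays it ran from 5.95 to 6.21. Such a sum follows mostly the brightest probe sets of a list. Of 14 markers of dividing and meristem cells, 2 were higher in stressed IPT, CYCD3, a cyclin (1.11), and cdc2A-2 (0.43), with summed log2 levels of 7.82 to 7.93 in stressed WT and 8.01 to 8.12 in stressed IPT. Without any 1 of the stressed arrays other than stressed WT replicate 3, cdc2A-2 did not pass, nor did ltpg1 between stressed genotypes without any 1 of the 6. None of 3 vascular probe sets passed in any comparison. Of 10 probe sets of photosynthetic tissue markers, which include PETE and the photosystem II genes above, 8 were higher in stressed IPT. Under stress in WT 2 fell, both of ca2, a carbonic anhydrase (-2.62 and -2.58), of which 1 moved to -0.89 with the poly-A covariate and did not pass. The other 2 probe sets of ca2 stood at -0.16 and -0.37 and did not pass. The log2 of this list, summed on the linear scale, ran in WT from 14.35 to 14.40 (watered) and 13.93 to 13.98 (stressed). In IPT it ran from 14.80 to 14.87 (watered) and 14.76 to 14.83 (stressed). The part of tissue make-up in the values of the CAB genes was not tested.

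Among 699 other probe sets with a symbol, placeholder symbols that start with LOC left out, those whose levels ran most like CAB4 over the 12 arrays were ca2 (Pearson r 0.95 and 0.92 for 2 probe sets), the metal transporter NRAMP3 (0.93), Fad7, a plastid fatty acid desaturase (0.91), and GMP (0.89). After the group means were taken off, these correlations were 0.07, 0.07, 0.31, -0.21 and 0.07. The first ca2 probe set had group means of 11.47 (watered) and 8.85 (stressed) in WT, and of 12.02 (watered) and 11.79 (stressed) in IPT.

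For CAB5 the highest r among the 699 was 0.80 for CEL8, an endoglucanase, followed by psi14B (0.78), PTI4 (0.78), AOC, the allene oxide cyclase of jasmonate synthesis (0.77), and JERF3 (0.76). In stressed WT the means of CEL8 (3.19), psi14B (3.24), PTI4 (3.21) and JERF3 (3.41) lay within or below the range of the array medians. For CAB6A the nearest were ST2 (0.94), AGPL3, a subunit of ADP-glucose pyrophosphorylase (0.92), XTH16, a xyloglucan-modifying enzyme (0.91), PsbQ (0.89) and FESOD, an iron superoxide dismutase (0.88). ST2 also varied with CAB6A within the groups (0.80 after group means). Between the members r was 0.78 for CAB4 with CAB5, 0.78 for CAB4 with CAB6A and 0.45 for CAB5 with CAB6A, and 0.44, -0.03 and -0.07 after group means. All these arrays share 4 groups, so the values are descriptions over 12 arrays, with no test.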

How the data were processed

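Leaf RNA of 12 samples in 4 groups of 3 was measured on 1 array each. The deposited values are log2 values, made by the authors with RMA, a method that in general corrects background, normalizes arrays and summarises each probe set, per the submitters' processing notes. Which RMA version and options they used is not given in the sources used here. That the values are log2 was judged from their range. Of 10209 probe sets, 108 controls were left out and 10101 tested, with no filter on dim ones. No scanner file or detection call was used, so signal over background is unknown, and the number of arrays limits the precision.

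In R 4.3.3 with limma 3.58.1, using its lmFit and eBayes functions, 1 mean was estimated for each group from the 12 arrays together (8 residual and 7.99 prior degrees of freedom), two-sided, for 6 comparisons. The steps were tested on simulated data. The poly-A difference averages 12 probe sets at the 3' end and 12 at the 5' end. Symbols come from the array's annotation of tomato genes, 1 symbol for 909 probe sets and several for 0. The members, lists and alternatives were chosen with earlier results of these data known. FDH and PCNA, caught by the electron transport pattern, were left out of that list by name. Named genes are the 3 members, those of each list that passed (at most 4 per comparison, or all genes of small lists), and the 5 probe sets most like each member. PHYA was added after its values were seen, to complete a count. The main fit did not pair samples by replicate number, and the labels do not say whether the numbers pair them. Deviations of same-numbered arrays correlated between -0.19 and 0.07, over 0.1 in 0 of 18 pairs. The same number was the best match in 6 of 18. These were all those of watered WT with watered IPT and of watered IPT with stressed IPT. Low correlations over all probe sets cannot exclude pairing. No sequences of these genes were used here.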

Additional observations from a re-analysis of the deposited data

Results flagged for a closer look

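The effect of stress on CAB4 differed between the genotypes, by a log2 value of 0.71 (IPT minus WT, SE 0.14, limma adjusted p = 0.0134, 3 arrays per group). Under stress CAB4 fell in WT (-0.63, limma adjusted p = 0.000847) and did not pass in IPT (0.09, limma adjusted p = 0.782). On the same arrays the poly-A controls had a 3' minus 5' difference that lay 2.23 higher under stress in WT and 0.80 higher in IPT (exact permutation p of 0.1 each, the smallest possible), and its part in the CAB4 difference was not tested beyond the covariate fit, which gave 0.73 with adjusted p = 0.0865.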

How the results depend on the processing

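The 3 genes gave 267 values under the alternatives (another scaling, a brightness filter, other moderation or weights, fewer arrays, the poly-A covariate, a replicate block), of which 245 kept direction and side of the threshold, 12 lost the threshold, 3 gained it and 7 changed sign, all of the last between values that passed under neither setting. In WT stress the number of genes past the threshold, 1, became 2 with the brightness filter, 2 with trend and robust moderation and 0 with the poly-A covariate. For the difference of the stress effects, 1 became 0 with quantile normalization, 2 with the brightness filter and 0 with the covariate. Between stressed genotypes 3 became 1 with the covariate. There CAB5 alone also lost the threshold with only the stressed arrays in the fit and with the replicate block. It did so too without any 1 stressed array other than stressed WT replicate 2. In stressed IPT against watered WT, CAB4 turned to -0.024 with median-centring and -0.0018 with the covariate and CAB5 to -0.034 with the covariate; leaving out 1 array gave CAB4 -0.023 to 0.043 and CAB5 -0.025 to 0.087. CAB6A in IPT stress ranged from -0.11 to 0.015 without 1 array. Among the other genes, quantile normalization turned PsbQ (0.040), PSBO (0.044) and PSBR (0.27) in WT stress, PSBR (-0.24) between stressed genotypes, PSBR (-0.35) and PSBO (-0.14) in the difference of stress effects, and PSBR (0.034) in stressed IPT against watered WT. Median-centring turned PSBR between watered genotypes (-0.011), and the covariate PSBO in IPT stress (0.011). Without 1 array PSBR ranged from -0.014 to 0.052 in the difference of stress effects and from -0.042 to 0.019 in stressed IPT against watered WT, and in IPT stress PSBO from -0.028 to 0.010 and PETE from -0.083 to 0.030.

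Over all probe sets the 1142 calls in WT stress became 694 with only the WT arrays, 748 without stressed WT replicate 2 and 40 with the covariate. The 137 in IPT stress became 228 with trend and robust moderation, 254 with array weights, 56 with the covariate, 62 and 54 without watered IPT replicate 1 or 2, and 81 without stressed IPT replicate 1 or 2. The 192 in the difference of stress effects became 300 with the brightness filter, 332 with trend and robust moderation and 105 with the covariate, and the 1812 in stressed IPT against watered WT became 713 with it. The replicate block ended 1 call of the 3 genes, that of CAB5 between stressed genotypes (0.35, adjusted p = 0.0614). Averaging the probe sets of a gene changes nothing here, as each has 1. Leaving out an array leaves 2 in its group, and the spread is shared over all groups.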
